A study of Mus musculus with 2 samples.

Results

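The genes described are 10 of the 55466 in the deposited tables: the salt-inducible kinase genes Sik1, Sik2 and Sik3, the gene of their activating kinase LKB1 (Stk11), the CREB-regulated transcription coactivator genes Crtc1, Crtc2 and Crtc3, and the transcription factor genes Creb1, Crem and Atf1. They were chosen by gene symbol as parts of 1 signalling pathway, with the lower level of Sik1 at 25 mM glucose already known, so that difference is a description here. MIN6 is a line of insulin-producing cells from a mouse insulinoma that arose in mice carrying the SV40 large T antigen, and it stands in for the beta cell of the islet. In the 25 mM group (labelled hyperglycemic), cells were kept for 1 h at 25 mM glucose, and in the 2.8 mM group (labelled hypoglycemic) for 1 h at 2.8 mM glucose. Both groups had first spent 0.5 h at 2.8 mM, and both were in a bicarbonate-buffered salt solution (KRBH) in place of culture medium. Each group had 1 library, so the values carry no replicate error and no difference could be tested between conditions. In a bulk library, fewer cells of a type and less RNA per cell cannot be told apart.

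SIK kinases belong to the AMPK-related kinases, which LKB1 switches on by phosphorylating their activation loop. Active SIKs phosphorylate CRTC proteins, which then bind 14-3-3 proteins and stay in the cytoplasm. A rise in cyclic AMP activates protein kinase A (PKA), which inhibits SIKs, and a rise in calcium activates the phosphatase calcineurin, which dephosphorylates CRTCs. CRTCs then enter the nucleus and bind CREB on cAMP response elements (CREs). In beta cells, where glucose raises calcium and incretin hormones raise cyclic AMP, CRTC2 and CREB are known for maintaining insulin-pathway and survival genes. Much of this control is by phosphorylation and localisation, which transcript levels do not show. Sik1 and Crem are themselves known CREB targets.

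Levels are in FPKM, which scales fragments to gene length and library size, so levels of different genes can be set side by side. From the steps between low FPKM values, the depth was fitted as 16780000 fragments for the 25 mM library and 19660000 for the 2.8 mM library. Values above 0 were listed for 19412 genes at 25 mM and for 20068 at 2.8 mM. The 12694 genes whose mean FPKM reached 1 are called expressed here. Of 14 beta-cell markers, 12 were expressed. Ins2 was at 50846 FPKM at 25 mM against 60328 FPKM at 2.8 mM, and Slc2a2 was at 0.653 FPKM at 25 mM against 0.469 FPKM at 2.8 mM. Of 16 markers of other pancreatic cells, Gcg, Cela1 and Cd68 were expressed and 11 were listed at 0 in both libraries. The summed level of these 16 genes was 2793 FPKM at 25 mM against 2831 FPKM at 2.8 mM, nearly all of it from Gcg.

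All 10 genes were expressed. At 25 mM the order of levels was Stk11 at 57.2 FPKM, Sik3 at 34.9, Crtc2 at 33.9, Atf1 at 31.5, Creb1 at 21.5, Crem at 16.2, Sik2 at 9.83, Crtc3 at 5.76, Crtc1 at 5.26 and Sik1 at 0.980 FPKM. At 2.8 mM the order was the same except that Crtc2 stood above Sik3 and Crtc1 above Crtc3, pairs whose levels were close in each library. With 1 library per group it cannot be said which neighbours in this order differ by more than replicates would. By mean FPKM, Stk11 was above 83.0% of the expressed genes, and Sik1 was above 7.58% of them.

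**Figure D1:**
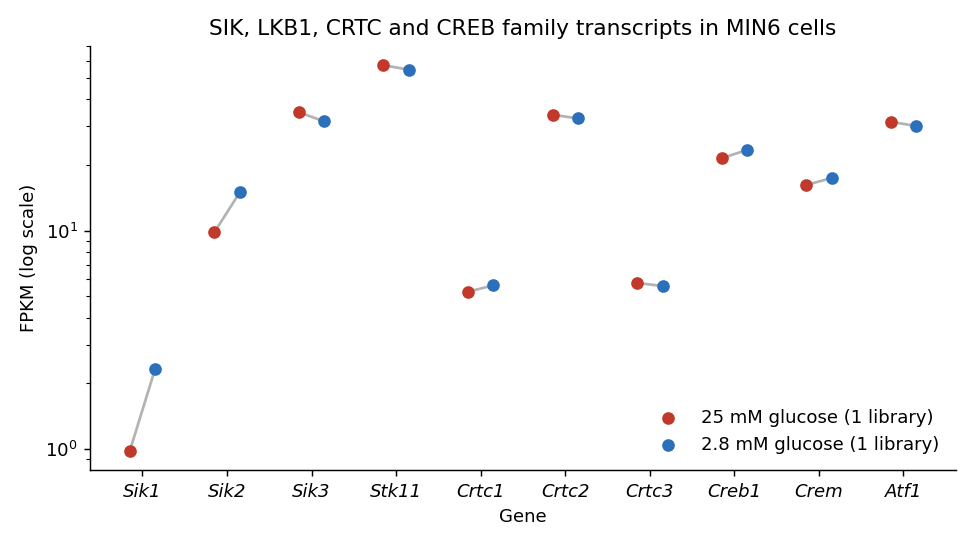
FPKM (log scale) of each of the 10 genes in the 25 mM library (red) and the 2.8 mM library (blue), joined by a line; there is 1 library per concentration and therefore no error bar. Sik1 (0.980 FPKM at 25 mM, 2.33 FPKM at 2.8 mM) and Sik2 (9.83 FPKM at 25 mM, 14.97 FPKM at 2.8 mM) slope visibly, and the points of the other 8 genes lie close together.

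The change of a gene is the log2 ratio of FPKM + 1 at 25 mM over FPKM + 1 at 2.8 mM, so that changes of low genes are understated. A gene was counted as apart at 1.5-fold or more on this scale. Of all 12694 expressed genes, 2.51% were at least 1.5-fold lower at 25 mM and 1.95% at least 1.5-fold higher. Of the 10 genes, Sik1 was past that fold, and it was lower at 25 mM. Nothing is read from this count, since the choice of genes used it. The median change of the 10 was -0.02, as was the median of all expressed genes, with 5 of the 10 lower and 5 higher at 25 mM.

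**Figure D2:**
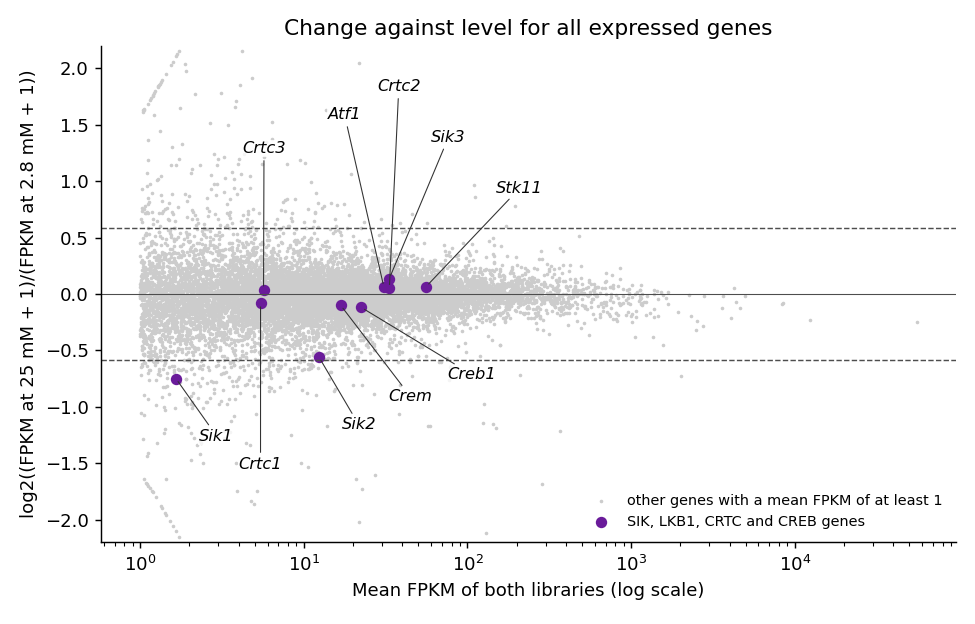
Change at 25 mM over 2.8 mM (log2 with a pseudocount of 1 FPKM) against mean FPKM of both libraries (log scale) for the 12694 expressed genes (grey), with the 10 pathway genes in purple; dashed lines mark 1.5-fold, and 71 genes lie beyond the vertical axis. Sik1 lies below the lower dashed line, Sik2 just above it, and the other 8 within the dense band around 0.

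The 3 SIK genes did not differ in 1 direction: Sik1 and Sik2 were lower at 25 mM and Sik3 slightly higher. Sik1, whose kinase is the short-lived, transcriptionally inducible member of the family (ENSMUSG00000024042, GRCm38 chromosome 17, 31844250 to 31855804, minus strand), was at 0.980 FPKM at 25 mM against 2.33 FPKM at 2.8 mM. Its log2 change was -0.75, and without a pseudocount its level at 2.8 mM was 2.38 times that at 25 mM. Sik2, a kinase abundant in adipose tissue and known to act on CRTC2 (ENSMUSG00000037112, chromosome 9, 50892801 to 51009073, minus strand), was at 9.83 FPKM at 25 mM against 14.97 FPKM at 2.8 mM. Its log2 change was -0.56, a fold of 1.47 and so just short of 1.5-fold, whereas without a pseudocount the fold was 1.52. Sik3, the broadly expressed member (ENSMUSG00000034135, chromosome 9, 46012820 to 46224194, plus strand), was higher at 25 mM, at 34.9 FPKM at 25 mM against 31.6 FPKM at 2.8 mM (log2 change 0.14).

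The make-up of the family differed accordingly between the libraries. The summed FPKM of the 3 genes was 45.7 at 25 mM and 48.9 at 2.8 mM, a difference of -6.66%. Sik3 made up 76.3% of this sum at 25 mM and 64.7% at 2.8 mM. Sik2 made up 21.5% at 25 mM and 30.6% at 2.8 mM, and Sik1 2.15% at 25 mM and 4.76% at 2.8 mM. The level of Sik3 was 3.55 times that of Sik2 at 25 mM and 2.11 times at 2.8 mM. Over Sik1, it was 35.6 times at 25 mM and 13.6 times at 2.8 mM.

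**Figure D3:**
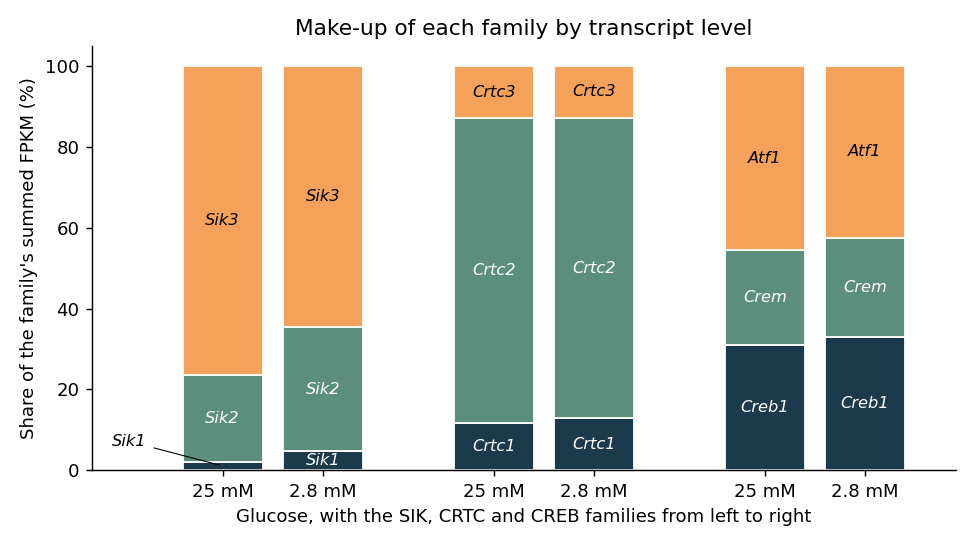
Share of each gene in the summed FPKM of its family (%), for the SIK, CRTC and CREB families from left to right, each with the 25 mM library on the left and the 2.8 mM library on the right. In the SIK family the share of Sik3 is 76.3% at 25 mM and 64.7% at 2.8 mM, while the largest difference among CRTC and CREB family genes is that of Atf1, with 45.5% at 25 mM and 42.5% at 2.8 mM.

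Low genes scatter more between the libraries than abundant ones, so each SIK gene is set, as a description and not a test, beside protein-coding genes of like level. Among the 2216 protein-coding genes whose mean FPKM was 1 to 5, the range that holds Sik1, 4.06% were at least 1.5-fold lower at 25 mM, and the central 95% of log2 changes ran from -0.71 to 0.61. Sik1, at -0.75, was just outside that range, but its lower level was known when the genes were chosen, so nothing is read from this. Among the 3862 with a mean of 5 to 20, the range that holds Sik2, 1.24% were at least 1.5-fold lower, and the central 95% ran from -0.47 to 0.37. Sik2, at -0.56, was also outside, though short of 1.5-fold. All of the pathway genes were chosen with earlier results of these data known, so nothing is read from this either. Among the 4885 with a mean of at least 20, the central 95% ran from -0.30 to 0.26, which contained Sik3 at 0.14.

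The number of fragments behind each value was estimated by placing all of a gene's fragments on its longest coding transcript. For Sik1, which has 1 coding transcript of 4521 nt, this gave 70 fragments at 25 mM and 194 at 2.8 mM. The exact 95% interval of its log2 ratio without a pseudocount was -1.66 to -0.85. For Sik2 it gave 841 fragments at 25 mM and 1495 at 2.8 mM, with an interval of -0.73 to -0.48, or -0.76 to -0.45 on its shortest coding transcript. For Sik3 the numbers were 3522 at 25 mM and 3732 at 2.8 mM, with an interval of 0.07 to 0.21. Sik3 has 5 coding transcripts of 227 to 6287 nt, and no interval was computed on a shorter transcript. With fewer fragments placed there it would be wider, so whether it would include 0 is not known. Each interval given here reflects the counting of fragments alone, and says how 2 libraries differ, not how 2 conditions do.

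**Figure D4:**
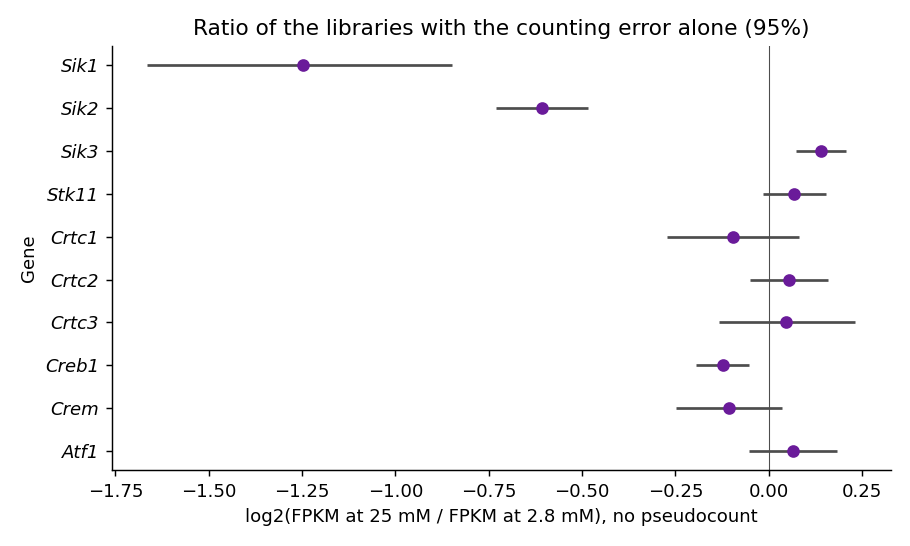
log2 ratio of FPKM at 25 mM over 2.8 mM without a pseudocount (points), with the exact 95% interval for counting error alone (lines), for fragments placed on the longest coding transcript. The intervals of Sik1 (-1.66 to -0.85) and Sik2 (-0.73 to -0.48) lie well below 0, those of Creb1 and Sik3 lie just below and just above it, and those of the other 6 genes include 0.

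Sik2 overlaps Ppp2r1b, a gene for a PP2A scaffold subunit on the other strand, over 1429 exonic bases. On its longest coding transcript 26.2% of the 31-mers occur, in reverse complement, in Ppp2r1b. Ppp2r1b was at 24.0 FPKM in both the 25 mM and the 2.8 mM library. Whether the libraries kept strand is not stated in the labels or files, and the part of these shared bases in the Sik2 values was not tested. Of the 31-mers of Sik1, 0.334% occur in another gene, and of those of Sik3, 0%.

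CRE letters were searched in RefSeq promoter windows (GRCm38.p6), which reach from 250 bases before to 50 bases after a transcription start and were found for 7 of the 10 genes (Sik2, Sik3, Stk11, Crtc1, Crtc3, Creb1 and Atf1). Sik1 and Crem, named above as CREB targets, and Crtc2 had no window and were not searched. The full palindrome TGACGTCA was in none of these 7 windows, and in 1.79% of all 32851 windows. At that share a set this small would hold few or none, so nothing is read from its absence. Its 5-base core TGACG, searched on both strands (as CGTCA on the other) and counted also where it lies within the palindrome, was in 4 of the 7, and in 20.8% of all windows. The core holds a CG, and the bases before the start were rich in G and C, from 59.6% for Stk11 to 80% for Sik2. No background of like composition was taken, so nothing is read from these shares. Sik3 held 3 cores, at -133, -116 and -57 from the start, and Sik2 held 2, from -1 and from 13. Stk11 held 1 at -218 and Atf1 1 at -90. The stretches around the cores are shown for the 2 SIK genes, whose levels differed in opposite directions, and for the 2 other pathway genes with a match. They read 5′ to 3′ on the gene's strand with the cores in capitals.
Sik2, chr9:51009044-51009089, minus strand: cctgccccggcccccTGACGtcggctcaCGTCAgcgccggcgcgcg
Sik3, chr9:46012672-46012782, plus strand: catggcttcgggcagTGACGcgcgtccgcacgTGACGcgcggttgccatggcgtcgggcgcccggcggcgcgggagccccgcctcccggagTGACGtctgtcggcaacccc
Stk11, chr10:80115562-80115596, plus strand: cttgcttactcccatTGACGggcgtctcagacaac
Atf1, chr15:100227754-100227788, plus strand: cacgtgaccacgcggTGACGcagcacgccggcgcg
A match describes these letters and is not evidence of a bound site. The lower Sik2 and the slightly higher Sik3 both carried core letters near their starts, and whether these bear on either level was not tested.

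Stk11, which encodes LKB1, was the most abundant of the 10 (ENSMUSG00000003068, chromosome 10, 80115803 to 80130682, plus strand). It was at 57.2 FPKM at 25 mM against 54.6 FPKM at 2.8 mM, a log2 change of 0.07, and the counting interval of its ratio, -0.02 to 0.15, included 0. Its level was 1.64 times that of Sik3 at 25 mM and 1.73 times at 2.8 mM. Of its 31-mers, 7.97% occur in Cbarp on the other strand, which was at 18.2 FPKM at 25 mM against 20.1 FPKM at 2.8 mM; the part of these shared bases was not tested.

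Of 15 listed genes for the partners of LKB1 and the other kinases it activates, 14 were expressed, with a median log2 change of 0.04. None of the 14 was at least 1.5-fold apart, and with shares of 2.51% lower and 1.95% higher among all expressed genes, a list this short would hold few or no such genes, so nothing is read from that count. The same holds for the lists of PKA, calcineurin, 14-3-3, histone deacetylase and CREB partner genes, each with 0 genes past 1.5-fold. Cab39, for the scaffold MO25 that holds LKB1 active, was at 42.2 FPKM at 25 mM against 42.3 FPKM at 2.8 mM. The highest changes were those of Mark4, a microtubule affinity-regulating kinase gene (8.73 FPKM at 25 mM against 6.97 FPKM at 2.8 mM, log2 change 0.29), and Prkaa2, for the AMPK alpha 2 subunit (2.75 FPKM at 25 mM, 2.29 FPKM at 2.8 mM, 0.19). The lowest were Brsk1, a kinase gene of neurons and endocrine cells (7.64 FPKM at 25 mM against 8.19 FPKM at 2.8 mM, -0.09) and the AMPK-related kinase gene Nuak2 (2.25 FPKM at 25 mM, 2.38 FPKM at 2.8 mM, -0.06). Nuak2 was at a low level, as Sik1 was, with a much smaller difference between the libraries. The lower level of Sik1 was known when the genes were chosen, so nothing is read from this contrast.

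The 3 coactivator genes differed little. Crtc2, known from liver and islets (ENSMUSG00000027936, chromosome 3, 90254163 to 90264125, plus strand), was at 33.9 FPKM at 25 mM against 32.7 FPKM at 2.8 mM, a log2 change of 0.05. Crtc1, best known from neurons (ENSMUSG00000003575, chromosome 8, 70382355 to 70439579, minus strand), was at 5.26 FPKM at 25 mM against 5.62 FPKM at 2.8 mM (-0.08). Crtc3, known from adipose tissue (ENSMUSG00000030527, chromosome 7, 80586627 to 80688877, minus strand), was at 5.76 FPKM at 25 mM against 5.58 FPKM at 2.8 mM (0.04). The counting interval of the log2 ratio included 0 for each, and was -0.05 to 0.16 for Crtc2, -0.27 to 0.08 for Crtc1 and -0.13 to 0.23 for Crtc3. Crtc2 made up 75.5% of the summed CRTC level at 25 mM and 74.5% at 2.8 mM.

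Among the regulators that act on SIKs and CRTCs, of 9 PKA genes 8 were expressed, with a median log2 change of -0.01. They ran from Pkig, a PKA inhibitor gene (35.1 FPKM at 25 mM against 41.9 FPKM at 2.8 mM, -0.25), and the regulatory subunit gene Prkar2a (20.8 FPKM at 25 mM, 23.3 FPKM at 2.8 mM, -0.16) to the catalytic subunit gene Prkaca (88.7 FPKM at 25 mM against 81.6 FPKM at 2.8 mM, 0.12) and another regulatory subunit gene, Prkar1b (54.8 FPKM at 25 mM, 49.2 FPKM at 2.8 mM, 0.15). Of 9 genes of calcineurin and its regulators 8 were expressed, with a median of 0.07. The highest changes in this list were those of Ppp3r1, for the regulatory subunit (130.2 FPKM at 25 mM against 113.3 FPKM at 2.8 mM, 0.20), and Ppp3cb, for a catalytic subunit (57.8 FPKM at 25 mM, 52.7 FPKM at 2.8 mM, 0.13). The lowest were those of 2 calcineurin inhibitor genes, Rcan2 (26.5 FPKM at 25 mM against 31.5 FPKM at 2.8 mM, -0.25) and Cabin1 (19.4 FPKM at 25 mM, 22.4 FPKM at 2.8 mM, -0.20). Rcan3, a further inhibitor gene of the list, was also lower, at 19.2 FPKM at 25 mM against 21.3 FPKM at 2.8 mM (-0.14). The inhibitor gene Rcan1 lay on the other side of 0, at 18.4 FPKM at 25 mM against 17.8 FPKM at 2.8 mM (0.04).

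Among genes of the 14-3-3 family, which hold phosphorylated CRTCs in the cytoplasm, 6 of 7 were expressed, with a median of 0.04. They ran from Ywhaz (248.2 FPKM at 25 mM against 249.5 FPKM at 2.8 mM) and Ywhag (188.6 FPKM at 25 mM, 186.9 FPKM at 2.8 mM) to Ywhah (249.9 FPKM at 25 mM against 237.0 FPKM at 2.8 mM) and Ywhab (167.6 FPKM at 25 mM, 155.7 FPKM at 2.8 mM, 0.11). The class IIa histone deacetylases are the other well-known SIK substrates, and 3 of their 4 genes were expressed. Hdac5 was at 19.5 FPKM at 25 mM against 25.1 FPKM at 2.8 mM (-0.35), Hdac4 at 8.07 FPKM at 25 mM, 8.57 FPKM at 2.8 mM (-0.08), and Hdac7 at 3.999 FPKM at 25 mM against 3.06 FPKM at 2.8 mM (0.30). Hdac5 and Hdac7 therefore lay on opposite sides of 0.

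The 3 factor genes were close to equal in the libraries. Creb1, which encodes CREB (ENSMUSG00000025958, chromosome 1, 64532645 to 64604548, plus strand), was at 21.5 FPKM at 25 mM against 23.4 FPKM at 2.8 mM, a log2 change of -0.12. Its counting interval was -0.19 to -0.05 on the longest coding transcript of 8364 nt but -0.33 to 0.08 on the shortest of 1255 nt, so whether it included 0 depended on the isoform assumed. Crem (ENSMUSG00000063889, chromosome 18, 3266048 to 3337748, minus strand) was at 16.2 FPKM at 25 mM against 17.4 FPKM at 2.8 mM (-0.10), with an interval of -0.25 to 0.04. Its row pools 39 annotated transcripts, so the inducible repressor ICER, which is made from an internal promoter of this gene, cannot be seen apart. Atf1, the closest relative of CREB (ENSMUSG00000023027, chromosome 15, 100227819 to 100261244, plus strand), was at 31.5 FPKM at 25 mM against 30.2 FPKM at 2.8 mM (0.06), with an interval of -0.05 to 0.18.

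Atf1 was the most abundant of these factors in both libraries, at 1.47 times the level of Creb1 at 25 mM and 1.29 times at 2.8 mM. Of its 31-mers, 21.6% occur in the pseudogene Atf1-ps, which was at 0.992 FPKM at 25 mM against 1.754 FPKM at 2.8 mM. The part of these shared bases in the values of Atf1 was not tested. Of 11 listed CREB partners and related factors 9 were expressed, with a median of -0.09, and 0 were at least 1.5-fold apart, against 2.51% lower and 1.95% higher of all expressed genes. Ep300, for the acetyltransferase p300 that CREB recruits, was at 9.15 FPKM at 25 mM against 10.1 FPKM at 2.8 mM (-0.14), and the bZIP factor gene Crebl2 at 16.9 FPKM at 25 mM, 18.4 FPKM at 2.8 mM (-0.12). Cop1, for a ubiquitin ligase, was at 43.8 FPKM at 25 mM against 37.2 FPKM at 2.8 mM (0.23), and Cited2, which competes for p300, at 29.2 FPKM at 25 mM, 27.3 FPKM at 2.8 mM (0.09). Crebbp, for the related acetyltransferase CBP, was at 2.44 FPKM at 25 mM against 2.46 FPKM at 2.8 mM.

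Genes known to be induced by cyclic AMP and CREB were mostly lower at 25 mM. Of 30 listed genes 24 were expressed. Of these, 2 were lower by 1.5-fold or more and 0 were higher by as much, against 2.51% and 1.95% of all expressed genes. The median log2 change was -0.17, and 19 of the 24 were below 0, as were 54.4% of all expressed genes. When every gene with a mean FPKM above 0 was kept, 20 of 29 listed genes (69%) were below 0. Their median was -0.12, and 54.3% of all genes kept were below 0. After each rescaling of the libraries 19 of the 24 expressed genes were below 0. The share of all expressed genes below 0 was 38.6% with equal summed FPKM. It was 44.3% with equal sums that leave out mitochondrial and the 10 most abundant genes. Rescaling shifts all genes alike and turns only those already near 0, so nothing is read from this contrast. Many of these genes are immediate early genes that other pathways also induce, and their lower level at 25 mM was already known when the list was written.

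Ppargc1a, which encodes a coactivator of mitochondrial and gluconeogenic genes, was at 3.61 FPKM at 25 mM against 6.73 FPKM at 2.8 mM (-0.74). Fosb, an AP-1 subunit gene, was at 1.52 FPKM at 25 mM against 3.22 FPKM at 2.8 mM (-0.74). At the other end, Cebpb, a bZIP factor gene, was at 14.4 FPKM at 25 mM against 10.7 FPKM at 2.8 mM (0.40), and Cartpt, a neuropeptide gene, at 1.09 FPKM at 25 mM, 0.939 FPKM at 2.8 mM (0.11). Irs2, the insulin receptor substrate gene that CREB is known to maintain in beta cells, was at 21.3 FPKM at 25 mM against 22.8 FPKM at 2.8 mM (-0.09). Its change was smaller than those of Ppargc1a and Fosb. These are the lowest of the list and at lower levels, where genes scatter more, so nothing is read from this contrast.

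**Figure D5:**
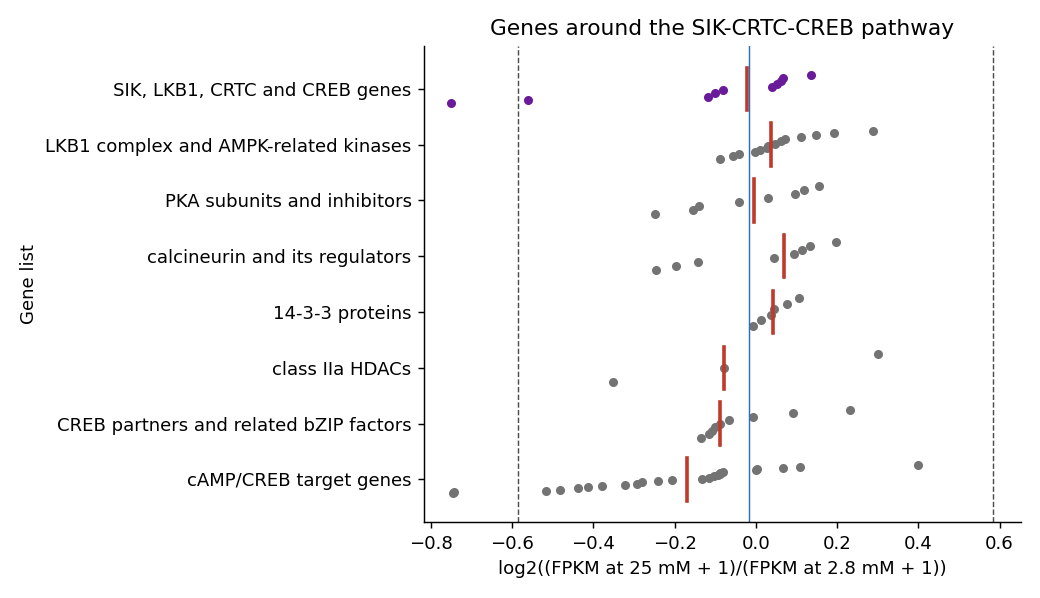
Change at 25 mM over 2.8 mM (log2 with a pseudocount of 1 FPKM) of each expressed gene (points) in the 10 pathway genes (purple) and the 7 lists around them (grey), with each list's median (red), the median of all expressed genes (blue) and 1.5-fold (dashed). The cAMP/CREB targets have the lowest median, -0.17, and 2 of their genes, with Sik1, lie below the lower dashed line.

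The core TGACG was in a promoter window of 16 of the 20 expressed target genes that had one, and in 23.0% of all 27025 genes with a window. The full palindrome was in 4 of the 20, and in 2.03% of all genes. The list was drawn up as known CREB targets, so nothing is read from these shares. The stretches of the 2 target genes at least 1.5-fold lower at 25 mM are shown in the same way.
Ppargc1a, chr5:51567755-51567789, minus strand: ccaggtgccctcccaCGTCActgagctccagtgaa
Fosb, chr7:19310086-19310120, minus strand: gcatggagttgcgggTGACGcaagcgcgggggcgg
Both held 1 core and no full palindrome. Cebpb, the highest of the listed targets, held 3 cores. Other listed targets, lower at 25 mM, held as few as 0 and as many as 4. The number of cores was not tested against the change, so nothing is read from these counts.

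The genes most like Sik1 were sought among 1372 named protein-coding genes with a mean FPKM within 2-fold of its own, as those nearest in log2 change over the 2 libraries. They were Morn1 (1.16 FPKM at 25 mM against 2.64 FPKM at 2.8 mM), Fosb (1.52 FPKM at 25 mM, 3.22 FPKM at 2.8 mM) and the neuropeptide gene Pth2 (0.839 FPKM at 25 mM against 2.08 FPKM at 2.8 mM). Their log2 changes differed from that of Sik1 by 0.0039, 0.0066 and 0.0076. With 2 libraries, this likeness rests on 1 difference per gene.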

How the data were processed

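RNA from MIN6 cells was sequenced, with 1 library per glucose concentration. The authors deposited FPKM per gene, per the file headers. The submitters' processing notes name HISAT2, Cuffdiff and GRCm38. For versions, settings, strandedness and annotation release, nothing is stated in the sources used here. An empty row (1) was not used. FPKM depends on how fragments were divided among isoforms, overlapping genes and copies. The 10 genes, all gene lists and the alternatives were chosen with earlier results of these data known. With 1 library per group no test was possible. The log2 ratios had a pseudocount of 1 FPKM, genes needed a mean FPKM of 1 to count, and the threshold was 1.5-fold. Named genes were the 10, up to 2 highest and 2 lowest of each list, any list gene at least 1.5-fold apart and the 3 nearest to Sik1. Overlapping genes, Cab39, Crebbp, Irs2, Rcan1 and Rcan3 were named after their values were seen.

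Coordinates and transcripts came from GENCODE M21 (GRCm38), which held 99.6% of the identifiers. Shared sequence was the percentage of 31-mers of the longest coding transcript found in other genes on either strand. Library totals and fragment lengths (270 nt at 25 mM, 290 nt at 2.8 mM) were fitted to the steps of low FPKM of single-transcript genes of at least 800 nt. Of 2190 values at 25 mM 93.8% were within 0.1 of a whole fragment, and of 2433 at 2.8 mM 94.7%. Intervals were exact Clopper-Pearson at 95%. The steps were tested on simulated data. Computation was in Python 3.11.15 with SciPy 1.17.1, pandas 2.3.3 and NumPy 2.4.6, and plots in matplotlib 3.10.9.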

Additional observations from a re-analysis of the deposited data

How the results depend on the processing

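The settings tried were pseudocounts of 0.1 and 5, none, 2 filters, 2 rescalings, centring and summing of rows with 1 symbol. Each of the 10 genes kept its direction under all of them (Sik1 has no value with a filter of 5 FPKM). Pseudocounts, filters and the summing of rows could not have turned the direction of any of the 10. The rescalings and centring raised all values slightly, so only genes just below 0 could have turned. The kept directions are therefore largely fixed by construction. Log2 changes ranged from -1.249 to -0.29 for Sik1, -0.61 to -0.43 for Sik2 and 0.12 to 0.20 for Sik3. The use of no pseudocount was chosen after the data were seen. The count of the 10 genes lower at 25 mM was 1 as reported. It was 2 with a pseudocount of 0.1, with no pseudocount or at the looser fold planned, and 0 with a pseudocount of 5, a filter of 5 FPKM or at 2-fold. Over all expressed genes, 318 were lower and 247 higher as reported, but 262 lower and 300 higher when summed FPKM was made equal, and 281 and 279 when the sums left out mitochondrial and the 10 most abundant genes. Which direction held more genes thus turned with equal summed FPKM, and the counts were nearly even with the other rescaling. Rescaling shifts all genes by construction. Centring on the median gave 296 lower and 261 higher. The lower count was 524 with a pseudocount of 0.1 and 506 with none. Both counts became 91 lower and 93 higher with a pseudocount of 5, 550 and 442 without a filter, 129 and 76 with a filter of 5 FPKM, 106 and 113 at 2-fold, and 969 and 689 at the looser fold. Thresholds, filters and pseudocounts change these counts by construction. When summed FPKM was made equal in the libraries, the median of all expressed genes was 0.045 in place of -0.02, so small changes near 0 are relative to the scaling. No paired analysis was possible because each concentration had only 1 library. Depth limits Sik1 most, with an estimated 70 fragments at 25 mM and 194 at 2.8 mM.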
